A study of Rattus norvegicus with 12 samples.

Results

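The miRNAs described here are the mature arms of miR-199a, miR-214 and miR-140, which are used as markers of fibroblasts and other mesenchymal cells. They were chosen by name: every entry of the deposited count tables whose identifier, without species prefix and arm ending, is one of these 3 was taken. That gave 6 arms, the 5p and 3p arm of each of 3 hairpins, out of 649 mature miRNAs in all. Rat gastric mucosa had been sequenced for small RNA in 3 groups, each of 4 libraries. Normal rats had no treatment. The model rats received MNNG (N-methyl-N'-nitro-N-nitrosoguanidine, an alkylating mutagen) for 24 weeks at 180 µg/ml as their water, together with gavages of 2% sodium salicylate and cycles of 2 days of food and 1 day of fasting, a regimen the labels give as a model of chronic atrophic gastritis. In the XLHZ group the same regimen was joined by 60 days of a herbal formula, Xianglianhuazhuo, so the XLHZ and model groups share all of the MNNG regimen. The labels give no strain, age or sex, and do not say whether libraries came from separate rats, so the p-values measure the spread between libraries, which may be technical.

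A miRNA hairpin is cut by Drosha and Dicer into a duplex of a 5p and a 3p arm, and the arm kept by an Argonaute protein represses mRNAs that pair with its seed (bases 2 to 8). miR-199a and miR-214 are made from a shared long transcript, Dnm3os, which runs on the strand opposite the dynamin gene Dnm3 and is switched on in mesenchyme by Twist1. miR-140 lies in an intron of the ubiquitin ligase gene Wwp2 and is best known from cartilage, where its loss disturbs skeletal growth. In fibrotic tissue miR-199a-5p represses caveolin-1, and in cartilage miR-140-5p limits Adamts5 and Hdac4.

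The sequences show how unlike the 6 arms are in what they can pair with. They are RefSeq sequences on build GRCr8, all 6 arms matched by name, and the sources used here do not give the build behind the deposited counts. Capitals mark the seed.
miR-199a-3p: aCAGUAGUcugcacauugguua
miR-199a-5p: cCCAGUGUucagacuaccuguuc
miR-214-3p: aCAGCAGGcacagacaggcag
miR-214-5p: aGAGUUGUcaugugucu
miR-140-3p: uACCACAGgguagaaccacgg
miR-140-5p: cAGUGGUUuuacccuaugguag
No 2 arms shared a seed. The most alike were miR-199a-3p with miR-214-3p and miR-199a-3p with miR-214-5p, each identical at 5 of 7 seed positions. The named miR-214-5p has 17 bases and does not pair with miR-214-3p in the hairpin below. Its seed therefore does not stand for the strand opposite miR-214-3p. Of 648 miRNAs in the joined tables, 587 had a RefSeq mature sequence, and 0 of those that are not members carried the seed of a member.

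On GRCr8 the miR-199a-2 arms lie on the plus strand at chr13:77116255-77116277 (5p) and chr13:77116294-77116315 (3p). The Mir214 hairpin follows 5.33 kb downstream at chr13:77121645-77121752, also on the plus strand, and both lie within the span of Dnm3. The Mir140 hairpin is at chr19:52375293-52375391, plus strand, within the span of Wwp2. The hairpins below are shown because the counts divide very differently between their named arms, which are in capitals.
Mir214: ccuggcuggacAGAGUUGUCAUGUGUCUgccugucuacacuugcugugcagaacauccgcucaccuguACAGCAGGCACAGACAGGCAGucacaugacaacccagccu
Mir140: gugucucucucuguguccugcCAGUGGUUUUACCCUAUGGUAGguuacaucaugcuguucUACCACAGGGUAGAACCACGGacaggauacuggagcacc
The named arms are 40 bases apart in Mir214, 17 in Mir140 and 16 in miR-199a-2. By the printed bases, miR-214-5p, of 17 bases, lies outside the stretch that pairs with miR-214-3p. That stretch begins where miR-214-5p ends, so the 40 bases are not the length of a loop. A further miRNA, miR-3120, is read from the minus strand of the same DNA: its sequence, with its seed in capitals, pairs with bases 28 to 48 of the Mir214 hairpin and overlaps miR-214-5p by 1 base.
miR-3120: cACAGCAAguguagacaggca
The mature miR-199a sequence is shared by more than 1 gene in mammals, so its counts cannot be assigned to the copy beside Mir214.

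The libraries held 9095260 to 11556061 counts. Levels below are CPM (a miRNA's counts relative to the library's total) scaled by TMM, a method that sets most miRNAs equal between libraries. Each library held markers of several compartments, and no marker on the 9 lists below was at 0 in any library. The epithelial miR-200 list summed to 67817 to 80017 CPM in normal, 53840.3 to 85175 in model and 72741 to 84622 in XLHZ libraries, and the gastric and endocrine list (miR-375-3p, miR-148a-3p and miR-7a-5p) to 23011 to 33374, 11095 to 23429 and 21288 to 30032 CPM. Smooth muscle miR-143 and miR-145 summed to 133246 to 219379, 145151 to 403505 and 97611 to 277213 CPM, and the striated muscle list to 6384 to 10096, 7023 to 24458 and 4650.0 to 13294 CPM. Squamous, endothelial, leukocyte, neuronal and erythroid markers were also present in all 12 libraries. The tissue labelled mucosa thus held miRNAs that mark muscle and squamous epithelium as well. Bulk libraries cannot show which cells hold miR-199a, miR-214 or miR-140, so their mesenchymal label was not tested at the level of cells. Nor can fewer cells of a type be told apart from less RNA per cell.

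miR-199a-3p made up most of the 6 arms in every library, and on the TMM scale its groups overlapped. This arm restrains mTOR and Met signalling in several cell types. It stood at 10297, 10589, 10553 and 10486 CPM in normal libraries 1 to 4. In the model libraries it stood at 9601, 8802, 12174 and 8888 CPM. With the formula it stood at 8425, 9497, 10034 and 10474 CPM. On the TMM scale the normal libraries lay close together, with a coefficient of variation of 1.24%. The other groups spread around and below them, with model library 3 the highest of all 12 and XLHZ library 1 the lowest. The group means were 10481 ± 130.03, 9866 ± 1580 and 9608 ± 884 CPM (mean ± SD, n = 4 here and throughout). On library totals, without TMM, the 4 model libraries (7353 to 9949 CPM) all lay below the 4 normal ones (10294 to 11210 CPM), and the XLHZ libraries (9032 to 11353 CPM) overlapped both. There the normal libraries lay less close together, at 10758 ± 516 CPM. Its rank by mean level was 22, 23 and 25 among 648 miRNAs. It took 78.7% to 82.9% of the counts of the 6 arms, which together were 0.935% to 1.398% of all counts of a library.

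The partner arm miR-199a-5p stood at a lower level, with a similar spread on the TMM scale. It stood at 1808, 1826, 1700 and 1673 CPM in normal libraries, at 1681, 1731, 2107 and 1593 CPM in model libraries, and at 1593, 1833, 1636 and 1793 CPM in XLHZ libraries. With TMM all 3 groups overlapped and model library 3 was again the highest. On library totals the model libraries (1446 to 1768 CPM) all lay below the normal ones (1781 to 1807 CPM), and XLHZ library 4 was the highest (1943 CPM). The within-group SD on the log2 scale was 0.12 for miR-199a-5p and 0.15 for miR-199a-3p. Among the 282 miRNAs with a mean of at least 10 CPM, the median of that SD was 0.31, and 15 and 24 miRNAs had a smaller one. Among the 77 miRNAs above 1000 CPM, 11 and 16 had a smaller SD.

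**Figure D1:**
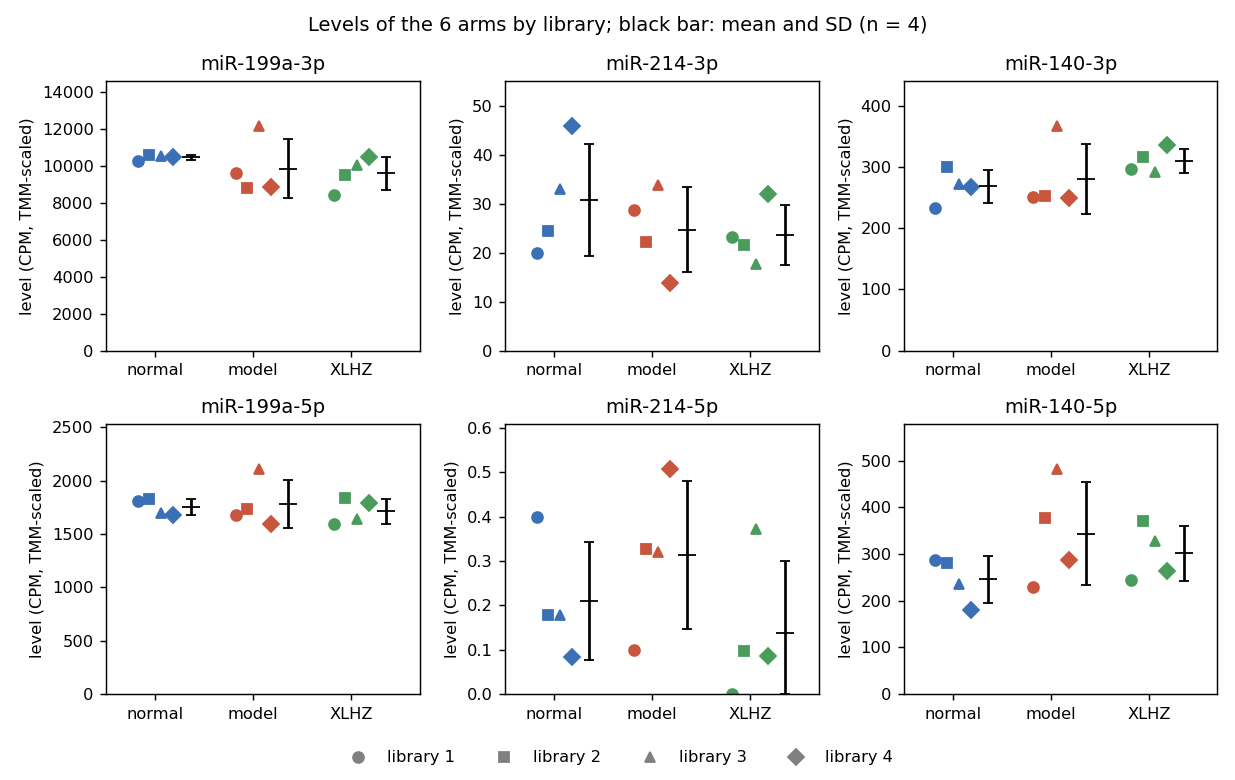
Level of each arm (vertical axes, TMM-scaled CPM, from 0) in the 4 normal, 4 model and 4 XLHZ libraries; symbols mark the library number, and black bars the group mean and SD, drawn no lower than 0. miR-199a-3p stayed between 8425 and 12174 CPM in all 12 libraries, while miR-214-3p ran from 13.8 to 45.9 CPM and miR-140-5p from 179 to 482 CPM.

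miR-214-3p was scarce beside miR-199a-3p and varied far more. It stood at 19.97, 24.4, 33.1 and 45.9 CPM in normal libraries, 28.8, 22.2, 33.9 and 13.8 CPM in model libraries and 23.2, 21.5, 17.8 and 32.0 CPM in XLHZ libraries. The highest value came from normal library 4 and the lowest from model library 4, and the groups overlapped. The raw counts behind these values ran from 163 to 546 per library. The within-group SD was 0.49 on the log2 scale, and 75.9% of the 282 miRNAs had a smaller one. miR-199a-3p exceeded miR-214-3p by 229-fold to 645-fold within a library. Each read covers a whole mature miRNA, so the level of an arm needs no division by length. The capture of different sequences by ligation and the counting rule were not tested.

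The entry named miR-214-5p was at the limit of detection, with 0 to 6 counts per library. For this entry XLHZ library 1 had 0 counts, which allows up to 0.330 CPM (3 counts, counting error only). Its RefSeq sequence of 17 bases is not the stretch that pairs with miR-214-3p in the hairpin. If the counts follow that sequence, they do not show how much of the strand opposite miR-214-3p was present. miR-214-5p did not pass the filter on low counts, so 5 of the 6 arms entered the tests. The antisense miR-3120 was nearly level, at 10.3 ± 1.15, 9.84 ± 0.923 and 9.81 ± 1.80 CPM in normal, model and XLHZ mucosa. miR-214-3p exceeded miR-3120 by 1.55-fold to 4.63-fold within a library.

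By the named entries, miR-140 was the hairpin whose arms were closest in level. The 3p arm, which represses CD38 in airway smooth muscle, stood at 233, 300.3, 272 and 267 CPM in normal libraries. In model libraries it was 251, 253, 367 and 250.1 CPM, with library 3 apart from the others on the TMM scale. In XLHZ libraries it was 296, 317, 291 and 335 CPM. All 4 lay above 3 of the 4 normal and 3 of the 4 model libraries. Normal library 2 was above XLHZ libraries 1 and 3, and model library 3 was above all of them, so the groups overlapped. On library totals the XLHZ libraries (294 to 363 CPM) all lay above the normal ones (233 to 293 CPM). The means were 268 ± 27.5, 280.3 ± 57.7 and 309.8 ± 20.1 CPM.

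The 5p arm of miR-140 moved more widely. It stood at 288, 279.5, 236 and 179 CPM in normal libraries. The model libraries had 229, 378, 482 and 287 CPM. The XLHZ libraries had 244, 371, 328 and 263 CPM. Model libraries 2 and 3 and XLHZ libraries 2 and 3 lay above every normal library, and the groups overlapped. The means were 246 ± 49.7, 344 ± 111 and 302 ± 58.9 CPM.

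The first comparison asked whether these miRNAs differed between exposed and normal mucosa, and 0 of the 5 arms tested passed. The background was low too: 0.248% of 403 miRNAs passed at an adjusted p under 0.05 (quasi-likelihood F test of edgeR, Benjamini-Hochberg adjusted over all miRNAs). The largest difference was that of miR-140-5p, whose estimate on the log2 scale was 0.48 ± 0.26 (SE; edgeR, adjusted p = 0.642). Its 95% interval ran from 0.933-fold to 2.08-fold. Beside it, the 4 smooth muscle markers summed to 181562 ± 40838 CPM in the normal group against 280092 ± 120262 CPM in the model group. The ranges of these sums overlapped. When the fit also held the smooth muscle score, the log2 fold change of miR-140-5p was 0.15, and without model libraries 2 and 3 it was 0.10. These libraries had the highest miR-140-5p of the model group (378 and 482 CPM), so leaving them out was bound to lower the value. Whether muscle content accounts for the difference was not tested. For miR-214-3p the log2 fold change was -0.33 ± 0.34 (SE; adjusted p = 0.799), and it ran from -0.48 to -0.062 with 1 library left out, nearest to 0 without normal library 4. On library totals it was -0.50. The value for miR-199a-3p was -0.093 ± 0.13 (SE; adjusted p = 0.843), and -0.22 (edgeR, adjusted p = 0.606) on library totals. Its 95% interval with TMM was 0.769-fold to 1.14-fold. miR-199a-5p (0.016) and miR-140-3p (0.059) were near 0, and both turned negative on library totals (-0.12 and -0.079). The median over the 5 arms was 0.016 and that over all miRNAs tested -0.0072. Library totals without TMM moved the median of all miRNAs to -0.12.

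The second comparison set formula-treated against untreated exposed mucosa. Again 0 of 5 arms passed, against 0.249% of 402 miRNAs. The log2 fold change of miR-140-5p was -0.20 ± 0.25 (SE; adjusted p = 0.825), opposite in sign to its value in the first comparison, with which this one shares the model libraries. That sign held under each scaling, at -0.012 on library totals. It turned to 0.18 without model libraries 2 and 3, the ones with the most miR-143-3p and also the most miR-140-5p. That of miR-140-3p was 0.13 ± 0.17 (SE; adjusted p = 0.842). miR-199a-3p, miR-199a-5p and miR-214-3p had values of -0.055, -0.070 and -0.079, which were 0.12, 0.11 and 0.14 on library totals. The median of all miRNAs was 0.0057 with TMM and 0.17 on library totals. The 95% interval for miR-199a-3p was 0.775-fold to 1.197-fold and that for miR-214-3p 0.593-fold to 1.51-fold.

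The third comparison, formula-treated exposed mucosa against normal mucosa, shares its libraries with the other two. Here 1.5% of 401 miRNAs passed and 0 of the 5 arms did. miR-199a-3p had the smallest unadjusted p of the 5 arms, 0.0956, at a log2 fold change of -0.16 ± 0.084 (SE; edgeR, adjusted p = 0.584) and an interval of 0.788-fold to 1.02-fold. miR-214-3p had a log2 fold change of -0.41 (SE 0.29) and miR-140-5p one of 0.27 (SE 0.19), both with an adjusted p of 0.671. With 1 library left out they ran from -0.60 to -0.14 and from 0.15 to 0.38, nearest to 0 without normal library 4 and without XLHZ library 2. miR-140-3p had one of 0.18 (SE 0.12, adjusted p = 0.639). miR-199a-5p was at -0.061, and at 0.011 with upper-quartile factors. On the TMM scale no tested arm had groups that did not overlap in this comparison or the other two, against 6.23% of all miRNAs here, 3.47% in the first and 1.25% in the second. On library totals both miR-199a arms did not overlap in the first comparison, as 5.21% of all miRNAs, and miR-140-3p did not in the third, as 6.23%; all arms overlapped in the second, where 1.75% of all miRNAs did not. None of these 3 differences passed the edgeR test on library totals. This scaling of levels was added after the data were seen.

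**Figure D2:**
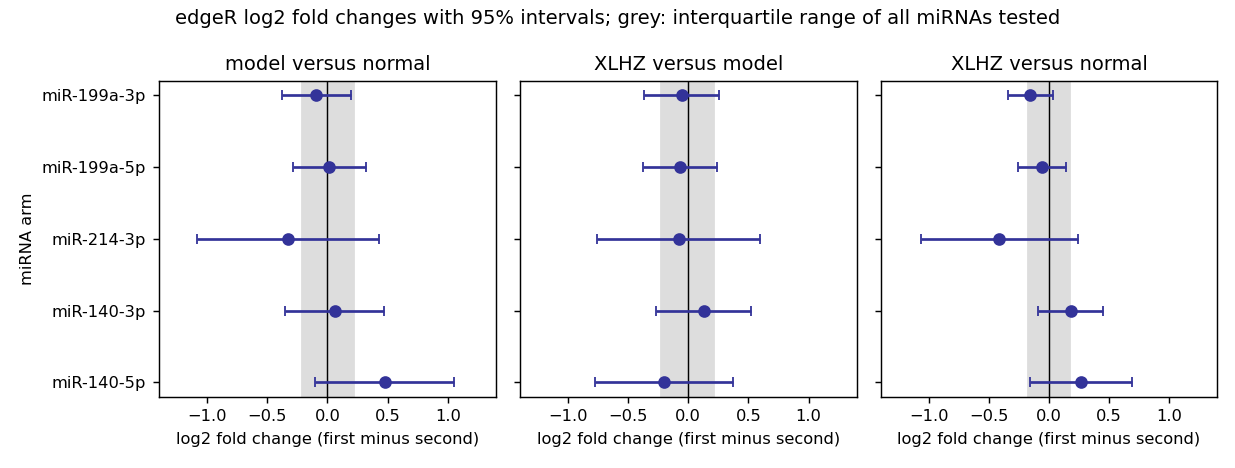
edgeR log2 fold change of each tested arm (points) with its 95% interval (bars) in the 3 comparisons, first group minus second; the grey band holds the interquartile range of all miRNAs tested. All 15 intervals include 0, and the narrowest belong to the 2 miR-199a arms while those of miR-214-3p reach from -1.08 to 0.60.

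Arm shares and ratios of counts within a library do not depend on scaling. The 3p share of miR-199a was 85.7 ± 0.589% in normal, 84.7 ± 0.766% in model and 84.8 ± 1.03% in XLHZ libraries. That of miR-214 was 99.2 ± 0.773%, 98.4 ± 1.39% and 99.3 ± 0.925%. It sets miR-214-3p against the named miR-214-5p, which is not the strand that pairs with it in the hairpin. The miR-214 share, and its tests below, therefore cannot be read as an arm balance like that of miR-199a or miR-140. Only miR-140 had a share that crossed from a majority of 3p to a majority of 5p between libraries. It was 44.8%, 51.8%, 53.6% and 59.8% in normal libraries 1 to 4, 52.4%, 40.1%, 43.2% and 46.6% in model libraries, and 54.9%, 46.0%, 47.0% and 56.0% in XLHZ libraries. The 95% Wilson intervals, which cover counting error alone, were at their lowest 38.9% to 41.4% (model library 2) and at their highest 58.5% to 61.1% (normal library 4). Within the normal group they were 43.4% to 46.1% in library 1 and 58.5% to 61.1% in library 4. Model libraries 2 and 1 had 38.9% to 41.4% and 50.9% to 53.8%, and XLHZ libraries 2 and 4 had 44.9% to 47.2% and 54.8% to 57.2%. The spread between libraries of a group was therefore far wider than counting error. The difference in mean share, model minus normal, was -6.92 percentage points (exact two-sided permutation test, p = 0.171). That of XLHZ minus model was 5.41 points (exact permutation p = 0.171). The SDs within groups were 6.18 points in normal, 5.24 in model and 5.20 in XLHZ libraries. The groups overlapped in both comparisons, and neither difference passed after adjustment (exact permutation test, adjusted p = 0.51 for each).

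Of the 21 differences in arm shares and ratios tested, 0 passed after adjustment. With 4 libraries against 4 the smallest exact two-sided p is 0.0286, and a single value at that minimum would have an adjusted p of 0.60. The lowest p was that of the log2 ratio of miR-140-3p to miR-199a-3p. It was -5.29 ± 0.133 in normal, -5.15 ± 0.0847 in model and -4.95 ± 0.117 in XLHZ libraries. All 4 XLHZ libraries lay above all 4 normal ones, a difference of 0.34 (exact permutation p = 0.0286, adjusted p = 0.45). The XLHZ and model libraries overlapped, with a difference of 0.19 (exact permutation p = 0.0571, adjusted p = 0.45). The ratio of miR-199a-3p to smooth muscle miR-143-3p was -3.88 ± 0.356, -4.52 ± 0.625 and -3.90 ± 0.626 on the log2 scale (exact permutation p = 0.114 for model against normal). That of miR-199a-3p to epithelial miR-200b-3p was -1.12 ± 0.112, -1.22 ± 0.238 and -1.28 ± 0.192 (exact permutation p = 0.429 for model against normal).

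The arm balance of miR-140 varied with muscle miRNAs across libraries. These relations were picked out after the values were seen, among 24 that were computed with compartment markers, so they are descriptions without a p-value, over 12 libraries that share their counts. The 3p share of miR-140 had Pearson r = -0.81 and Spearman rho = -0.87 with log2 miR-143-3p, r = -0.74 with miR-145-5p, also of smooth muscle, and r = -0.80 with miR-1b of striated muscle. With epithelial miR-200b-3p r was 0.36. For miR-143-3p r was -0.77 after group means were subtracted, -0.74 without model library 2 and XLHZ library 1, farthest from its median, and -0.82 on library totals. The levels of the arms depended more on the scaling. miR-140-5p had r = 0.77 with miR-143-3p on the TMM scale and 0.53 on library totals, and miR-140-3p had 0.088 and -0.62. miR-199a-5p had r = 0.64 and -0.69, so the sign of its relation depended on the scaling, and miR-214-3p had -0.092 and -0.42. miR-143-3p took 9.39% to 29.2% of all counts in a library.

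**Figure D3:**
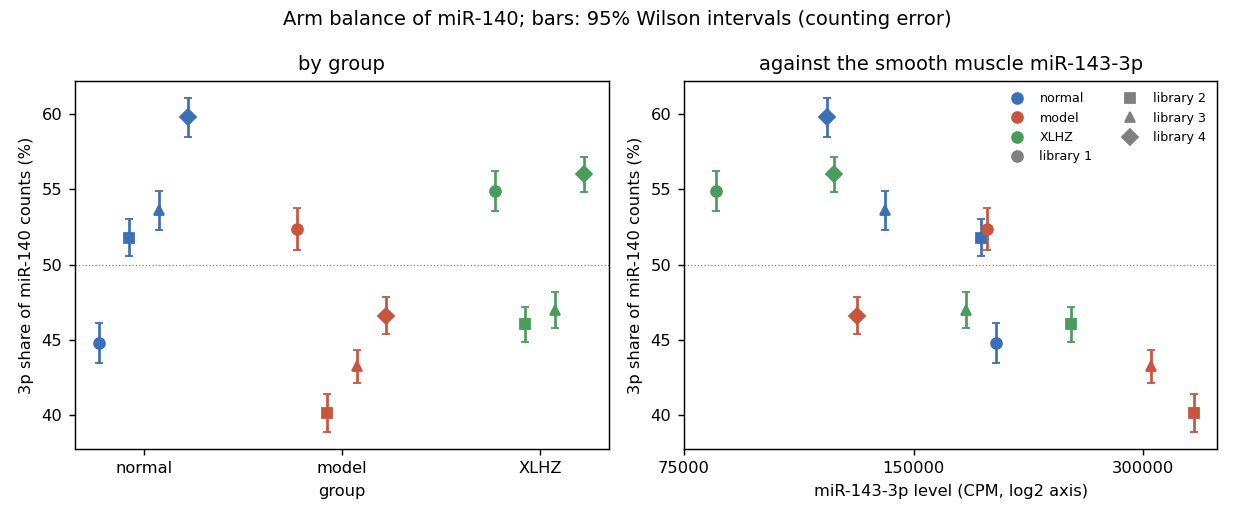
Left, share of miR-140 counts from the 3p arm (percent) in each library of the 3 groups; right, the same share against the level of miR-143-3p (CPM, log2 axis). Bars are 95% Wilson intervals. The share runs from 40.1% in model library 2, with 349207 CPM of miR-143-3p, to 59.8% in normal library 4, with 115452 CPM; the 3 highest miR-143-3p levels have shares of 46.0% or less.

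Relations of miR-199a-3p with 4 other miRNAs were examined over the 12 libraries. With miR-214-3p Pearson r was 0.56 (permutation p = 0.0564, adjusted p = 0.156) and Spearman rho 0.63 (adjusted permutation p = 0.134). Without model library 3 and XLHZ library 1, the farthest from the median, r was 0.60. With miR-140-3p r was 0.48 (adjusted permutation p = 0.156; rho = 0.38), and 0.35 without those libraries. After subtraction of group means this relation had r = 0.80 (permutation p = 0.00366, adjusted p = 0.0146) and rho = 0.70 (adjusted permutation p = 0.0572). Without model library 3 and XLHZ library 1, its r after subtraction was 0.59 (adjusted permutation p = 0.272), while rho was 0.71 (permutation p = 0.0280, adjusted p = 0.112). The permutations shuffled the subtracted values freely over libraries, although their group means had been removed. The p-values after subtraction therefore tend to be too small. With epithelial miR-200b-3p r was 0.48 (adjusted permutation p = 0.156; rho = 0.27), and 0.77 (adjusted permutation p = 0.0529; rho = 0.34) on library totals. With miR-143-3p r was 0.26 (adjusted permutation p = 0.417; rho = 0.070), -0.53 without the same pair of libraries and -0.61 on library totals, so its sign depended on both. The arms of miR-199a themselves had r = 0.74 and those of miR-140 r = 0.44.

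**Figure D4:**
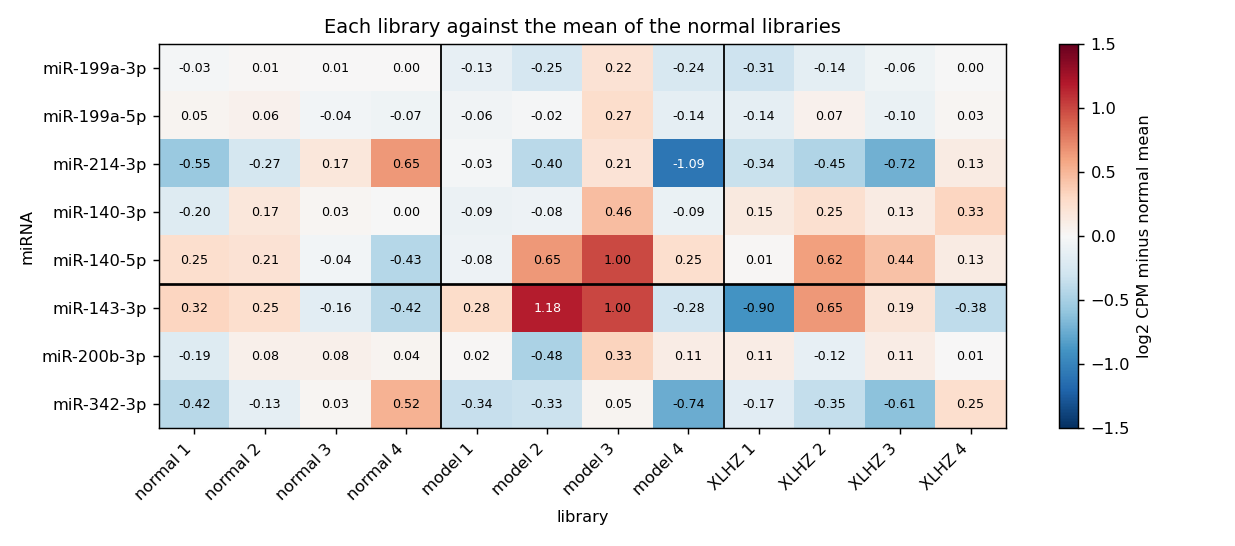
Log2 CPM of the 5 tested arms and of miR-143-3p (smooth muscle), miR-200b-3p (epithelium) and miR-342-3p (from the list of 5 leukocyte markers) in each library, minus the mean of the normal libraries. Red is higher and blue lower. The miR-199a rows stay within 0.32 of 0, the miR-140-5p row is highest in model libraries 2 (0.65) and 3 (1.00), as is miR-143-3p (1.18 and 1.00), and the miR-214-3p row shares its low in model library 4 with miR-342-3p (-1.09 and -0.74).

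The miRNAs whose pattern was most like each hairpin's more abundant arm were taken from 144 other miRNAs with a mean of at least 100 CPM, by Pearson r of log2 CPM over the 12 libraries, which share their scaling. These values are descriptions and carry no test. miR-199a-3p was most like miR-16-5p (r = 0.80), miR-31a-5p (0.77) and miR-181a-5p (0.76). miR-214-3p was most like miR-342-3p (0.94), miR-191a-5p (0.92) and miR-181a-5p (0.90), and these stood at 0.93, 0.89 and 0.90 on library totals. miR-342-3p, a leukocyte miRNA, stood at 232, 282, 316 and 444 CPM in normal libraries 1 to 4, in the same order as miR-214-3p. Of the 5 leukocyte markers listed, miR-150-5p also had a high r with miR-214-3p (0.80). The others did not, with r of 0.17 for miR-223-3p, 0.077 for miR-142-3p and -0.033 for miR-142-5p. Ordered by r with miR-214-3p among 146 miRNAs, miR-199a-3p came 20th and miR-199a-5p 35th, with counts that may come from more than 1 gene. miR-140-5p was most like miR-204-5p (0.82), the smooth muscle arm miR-143-5p (0.81) and the neuronal miR-218a-5p (0.81), and these stood at 0.67, 0.62 and 0.61 on library totals. This arm was only narrowly the more abundant of miR-140, at 37445 counts over all libraries against 36592 for miR-140-3p. The 3p arm was not compared in this way, so these values describe the 5p arm and not the hairpin.

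**Figure D5:**
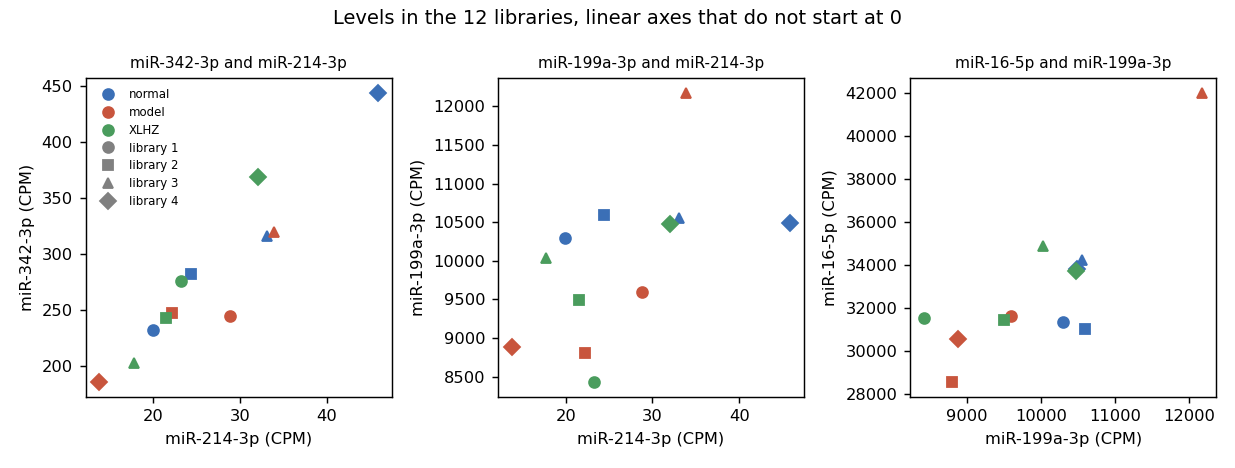
Levels in the 12 libraries on linear axes that do not start at 0: miR-342-3p against miR-214-3p, miR-199a-3p against miR-214-3p, and miR-16-5p against miR-199a-3p. The points of the left panel lie along a line (r = 0.94 on the log2 scale), those of the middle panel scatter (r = 0.56), and in the right panel model library 3 is the highest of both miRNAs (42007 and 12174 CPM).

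Other miRNAs of stroma and fibrosis, listed by name, gave no call either. Of 16 listed, 15 were found under the listed name and 14 passed the count filter. In each comparison 0 of these 14 passed, with smallest adjusted p of 0.642, 0.729 and 0.493 (edgeR). The member left out by the filter was miR-10b-5p, with 0 to 4 counts, beside the near-identical miR-10a-5p at 7226 CPM; reads shared by such copies may have been assigned to 1 of them. The median log2 fold change was 0.083 for model against normal, -0.060 for XLHZ against model and -0.12 for XLHZ against normal, with 8, 3 and 4 of 14 values above 0. Over all miRNAs tested the medians were -0.0072, 0.0057 and -0.0040, and 0.248%, 0.249% and 1.5% passed. On library totals the list had medians of -0.028, 0.12 and -0.064, beside -0.12, 0.17 and 0.057 over all miRNAs, so the sign of the first 2 depended on the scaling. The most abundant was miR-29a-3p, which represses collagens, at 42539.6 ± 3424 CPM in normal, 41441 ± 571 in model and 42639.7 ± 1166 in XLHZ mucosa. miR-29c-3p of the same family had log2 fold changes of 0.16, 0.069 and 0.22. The profibrotic miR-21-5p had 0.50 (SE 0.30), -0.39 (SE 0.32) and 0.10 (SE 0.14), and miR-125b-5p had 0.22, -0.49 and -0.27. The lowest value on the list was that of miR-100-5p, named after its values were seen, at -0.84 ± 0.34 (SE; edgeR, adjusted p = 0.729) for XLHZ against model, and it was -0.44 ± 0.19 (SE; edgeR, adjusted p = 0.552) for XLHZ against normal.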

How the data were processed

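Total RNA of rat gastric mucosa with integrity numbers above 7 was made into QIAseq small RNA libraries, per the labels' protocols. The authors deposited 2 tables of raw counts per mature miRNA, normal with model and model with XLHZ, per the file headers. The deposited CPM columns equalled count over column total within 5.0e-05 and were used for that check alone. Per the submitters' processing notes the tools were Bowtie and DESeq, whose versions and roles, like the build, the counting rule and any use of molecular identifiers, the sources used here do not give. Reads of near-identical miRNAs may be assigned to either.

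Of 622 miRNAs in both tables, 621 had equal model counts, and the other was left out of the joined table. miRNAs in 1 table alone (17 and 10, at most 3 counts) were set to 0 in the other. Replicates of a group differed beyond sampling noise. Each comparison was fitted on its 8 libraries with edgeR 4.0.16 in R 4.3.3 (TMM, filterByExpr with a minimum count of 10), adjusted over all miRNAs at 0.05. Standard errors are the log2 fold change over the square root of F. Permutation tests used scipy 1.17.1, with 100000 resamples for correlations. Alternatives used DESeq2 1.42.0 and limma 3.58.1. The edgeR step was tested on simulated counts.

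The members, marker and companion lists, and alternatives were chosen with earlier results of these data known. Named miRNAs were all 6 arms, the companion list (values for the most abundant and those that passed, with miR-10b-5p and miR-100-5p named after their values were seen), seed sharers, and the 3 most similar miRNAs per hairpin. Replicate numbers came from the titles. Same-numbered libraries did not deviate together in every pair, so numbers were not taken as pairs.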

Additional observations from a re-analysis of the deposited data

Results flagged for a closer look

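In 39 sets of 4 libraries (6 levels and 7 shares or ratios in 3 groups), 2 had a library far from the other 3, where chance gives about 1 in 20. miR-140-3p stood at 366.8 CPM in model library 3, against 250.1 to 253 CPM in the other model libraries. With TMM the same library was also the highest of its group for both miR-199a arms, miR-214-3p and miR-140-5p. Its TMM factor, 0.817, was the lowest of all libraries, which raises each of its levels. On library totals its miR-140-3p was 299.8 CPM, against 277.5, 252.9 and 211.4 CPM in model libraries 4, 1 and 2. There model library 4 was highest for miR-199a-5p (1768 against 1722 CPM) and model library 1 for miR-214-3p (29.0 against 27.7 CPM). The log2 ratio of miR-199a-3p to miR-200b-3p was -0.954 in normal library 1, and the lowest of the normal libraries had -1.19.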

How the results depend on the processing

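None of the 5 tested arms was called by edgeR, DESeq2 or limma under any alternative run, and miR-214-5p, tested by edgeR alone with no count filter, was not called. Of 295 alternative log2 fold changes for 15 results, 270 kept direction and side of the threshold and 25 turned sign, none of them called; the smallest adjusted p was 0.283 (miR-140-5p, XLHZ against normal, smooth muscle score as covariate, 0.34). For model against normal, miR-140-3p was -0.079 on library totals, -0.032 with the smooth muscle covariate and -0.067 without model libraries 2 and 3, and miR-199a-5p was -0.12, -0.081 and -0.068. For XLHZ against model, in the same order, miR-199a-3p was 0.12, 0.023 and 0.0077, miR-199a-5p 0.11, 0.028 and 0.017, and miR-214-3p 0.14, 0.032 and 0.10, while miR-140-5p was 0.11 with the covariate and 0.18 without those libraries. miR-199a-5p, XLHZ against normal, was 0.011 with upper-quartile factors. With 1 replicate left out, miR-140-3p ran from -0.040 to 0.16 and miR-199a-5p from -0.018 to 0.10 for model against normal, and miR-199a-3p from -0.098 to 0.025 and miR-214-3p from -0.27 to 0.078 for XLHZ against model. The cause was not tested.

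Of 210 alternatives for 21 arm shares and ratios, 21 turned sign. As differences of medians, XLHZ against model, the miR-199a 3p share was -0.209 points, the miR-214-3p to miR-199a-3p log2 ratio -0.085 and the miR-199a-3p to miR-200b-3p ratio 0.036, and with 1 replicate left out these ran from -0.243 to 0.476, -0.20 to 0.16 and -0.14 to 0.047. For XLHZ against normal the miR-199a-3p to miR-143-3p ratio was 0.10 by medians and -0.22 to 0.24 with 1 replicate left out. The miR-214 3p share ran from -0.211 to 0.613 points, the miR-140 3p share from -4.08 to 0.923 points and the miR-214-3p to miR-199a-3p ratio from -0.39 to 0.00017. The correlation of miR-199a-3p with miR-143-3p was -0.61 on library totals.

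With the replicate number as a block, 0 arms were called in each comparison and the block changed no call; miR-140-5p was 0.45 for model against normal. Same-numbered libraries had correlations of deviations from -0.43 to 0.51, and 5 of 12 libraries correlated best with their own number, so the pairing has no support from the labels and little from the data. Counts of miR-214-5p, 0 to 6, are too few for a comparison, and 4 libraries a group limit what can be detected for miR-214-3p.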

Other observations

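The arms were also set beside endothelial and leukocyte miRNAs, as descriptions over 12 libraries that share their scaling. With endothelial miR-126a-3p, Pearson r of log2 CPM was -0.53 for miR-199a-5p, -0.50 for miR-140-5p, -0.18 for miR-214-3p, -0.040 for miR-140-3p and -0.015 for miR-199a-3p. With the myeloid and lymphoid miR-142-5p, r was 0.58 for miR-199a-3p, 0.36 for miR-199a-5p, 0.34 for miR-140-3p, 0.18 for miR-140-5p and -0.033 for miR-214-3p. Over the 5 leukocyte markers, miR-214-3p had r = 0.94 with miR-342-3p, 0.80 with the lymphoid miR-150-5p, 0.17 with the myeloid miR-223-3p, 0.077 with miR-142-3p and -0.033 with miR-142-5p. On library totals the order was the same. For miR-199a-3p, with the markers listed in that order, r was 0.50, 0.37, 0.73, 0.60 and 0.58 on the TMM scale. On library totals these were 0.65, 0.77, 0.79, 0.71 and 0.72, so the place of miR-150-5p among the markers depended on the scaling.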
